A study of Mus musculus with 40 samples.

Results

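LSK cells of the E14.5 fetal liver (lineage marker-negative, SCA-1-positive, c-KIT-positive) are described here in mice homozygous for a KAT-dead KAT6A, the G656E change, against wild type (WT). The comparison takes, by GEO's genotype, tissue and stage labels, the 4 libraries of *Kat6a* G656E/G656E fetuses with WT *Kat6b* (written *Kat6a* E/E) and the 4 libraries WT at both loci, that is 8 of the 40 libraries of the series. The series measured RNA by bulk sequencing in whole E9.5 embryos and in sorted LSK cells of fetuses with point-mutant, null or WT *Kat6a* and *Kat6b* alleles. Each LSK library came from 1 fetus at E14.5 on a C57BL/6J background, and the mutant allele was a germline change made with Cas9, so all cells of the fetus and its liver carried it. The cells were sorted by surface markers and no other treatment was given. The other 8 LSK libraries, 4 from *Kat6b* E/E fetuses and 4 with both genes mutated (*Kat6a* E/E;*Kat6b* E/E, written double), were used in the model and for a separate reading of the same allele.

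KAT6A is a lysine acetyltransferase of the MYST family that works on histone H3 in a complex with BRPF, ING and MEAF6 proteins. It is known as a regulator of hematopoietic stem cells and as a partner in leukemia fusion proteins, and its KAT domain binds the acetyl-CoA that supplies the acetyl group. LSK cells hold hematopoietic stem cells and the multipotent progenitors that follow them, which already transcribe low levels of myeloid, lymphoid, mast cell and megakaryocyte genes before they commit to a lineage.

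The changed codon is shown because it is the only difference the study placed between the genotypes. It lies in exon 13 of 18 of *Kat6a* on the plus strand of mouse chromosome 8 (GRCm39, chr8:23416459-23416461), and the stretch below, chr8:23416444-23416476, has the WT glycine codon in capitals. The WT codon GGC is changed to a glutamic acid codon in the E allele.
*Kat6a* G656E codon with flanks, WT: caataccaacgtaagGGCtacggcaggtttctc

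*Kat6a* RNA did not differ beyond the spread between libraries. It stood at 165, 181, 182 and 169 CPM (counts scaled to a common library size with TMM factors) in WT replicates 1 to 4 and at 184, 172, 180 and 184 CPM in *Kat6a* E/E replicates 1 to 4. The groups overlapped, and the log2 fold change, *Kat6a* E/E minus WT in every value given here, was 0.07 ± 0.09 (SE; limma FDR 0.837). *Kat6b*, the paralog, stood at 30.7 to 38.6 CPM in WT and at 40.6, 22.3, 38.0 and 39.6 CPM in *Kat6a* E/E (0.10 ± 0.09, FDR 0.727). Gene counts do not show the point mutation itself, so the *Kat6a* level does not check the genotype labels. Of the 11 genes for KAT6 complex members and MYST acetyltransferases none was called, and their log2 fold changes ran from -0.16 to 0.10.

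The 8 libraries held 17690587 to 59216547 assigned read pairs, with the largest total in WT replicate 4. WT replicates 1 to 3 and *Kat6a* E/E replicate 1 came from 1 litter (753), WT replicate 4 from litter 1111 and *Kat6a* E/E replicates 2, 3 and 4 from litters 1061, 1112 and 1117, so litter and genotype can be told apart only within litter 753. *Kit*, the c-KIT receptor of the gate, stood at 443 to 541 CPM in WT and 423 to 552 in *Kat6a* E/E, and *Cd34* at 395 to 794 and 475 to 844. *Ly6a*, which encodes SCA-1, stood at only 1.26 to 5.31 CPM in WT and 4.80 to 10.3 in *Kat6a* E/E (log2 fold change 1.06 ± 0.30, FDR 0.114), so its RNA gives little check of that part of the gate. *Cd3e*, a T cell lineage gene, was listed at 0 in all 8 libraries. WT replicate 4 and *Kat6a* E/E replicate 2 stood apart from the others of their genotype, with a summed level of 22 erythroid genes of 6580 and 9550 CPM against 1232 to 3740 in the other 6, and of 6 gate markers of 1339 and 1369 CPM against 1878 to 2116. *Xist* was high in 1 library of each group.

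**Figure D1:**
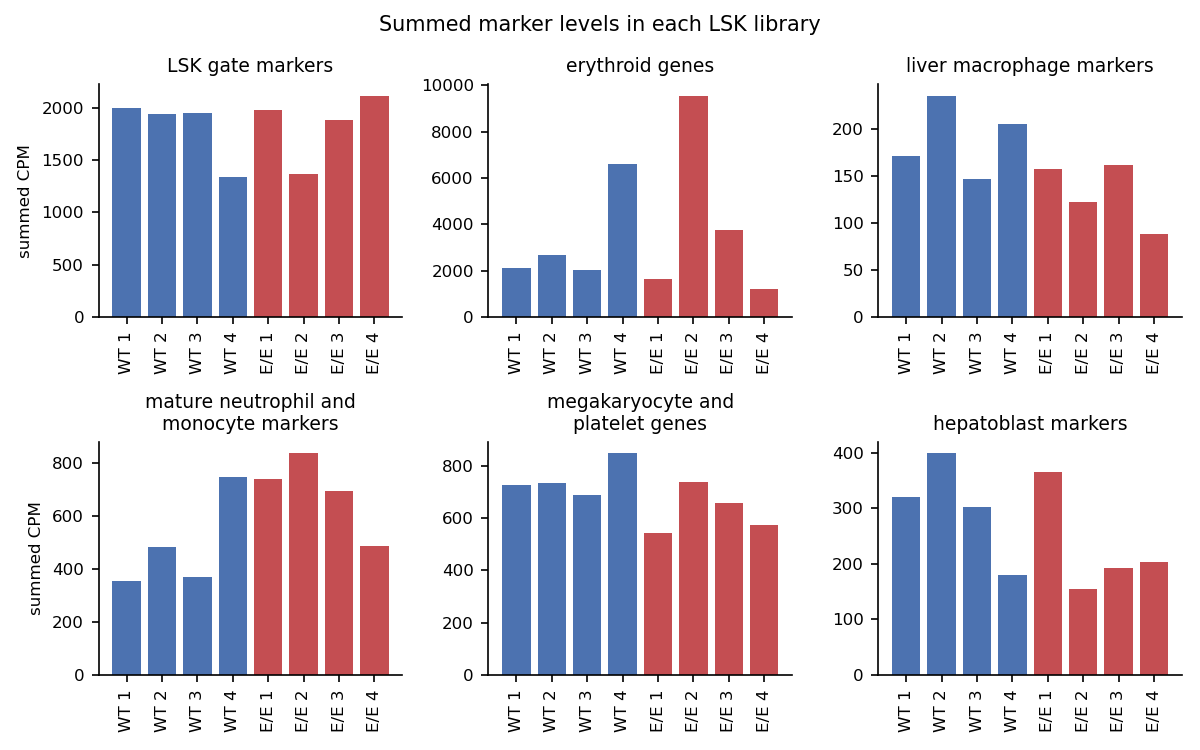
Summed CPM (vertical axes) of 6 marker lists in each of the 4 WT (blue) and 4 *Kat6a* E/E (red) LSK libraries, 1 bar a library. WT replicate 4 and *Kat6a* E/E replicate 2 have the most erythroid RNA (6580 and 9550 CPM) and the lowest gate marker levels (1339 and 1369 CPM).

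Across the transcriptome, 178 of 13071 protein-coding genes (1.36%) differed between *Kat6a* E/E and WT at an FDR under 0.05 by limma, fitted with a litter block and surrogate variables, hereafter called. The 96 higher genes (0.734%) were mostly changed by little, with a median log2 fold change of 0.56, and the 82 lower genes (0.627%) by more, with a median fall of 0.93 on the log2 scale. Of the called genes 66 differed by less than 1.5-fold and 49 by 2-fold or more, 14 of them higher and 35 lower. Over all genes tested the median was -0.01, with 6004 positive and 7067 negative values, and 1639 had an unadjusted limma p under 0.05. The lower genes were also the less expressed, with a median level of 9.34 CPM against 26.5 CPM for the higher genes and 33.5 CPM for all genes tested. For 45 of the 96 higher genes every *Kat6a* E/E library lay above every WT library, and for 56 of the 82 lower genes every one lay below. Over all genes tested these patterns held for 1.89% and 2.21%.

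Much of the count rested on *Kat6a* E/E replicate 1, the mutant fetus with WT litter mates. With 4 surrogate variables and a litter correlation of 0.331, before single-gene weights, this library carried 47.5% of the mutant side of the contrast. Replicates 3 and 4 carried 22.2% and 22.5%, and replicate 2 carried 7.73%. The leverage of replicate 2, its pull on its own fitted value, was 0.977, against 0.312 to 0.36 in the other mutant libraries. The model thus fitted replicate 2 almost by itself, and the contrast rested mainly on the other mutant libraries. Without replicate 1 only 1 gene was called, *Dglucy*, and no member of any list below. All 178 genes kept their direction, with a median change of 0.65 against 0.70, and an unadjusted limma p under 0.05. They had been picked in a fit that already held the remaining libraries, so this is not a separate check. Without WT replicate 2, without *Kat6a* E/E replicate 4 and without WT replicate 4 the counts were 25, 43 and 88. Without WT replicate 4 and *Kat6a* E/E replicate 2 together, the libraries with the most erythroid RNA, 149 genes were called, 82 of them among the 178. Single replicates may be named below as WT 4 or E/E 2.

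**Figure D2:**
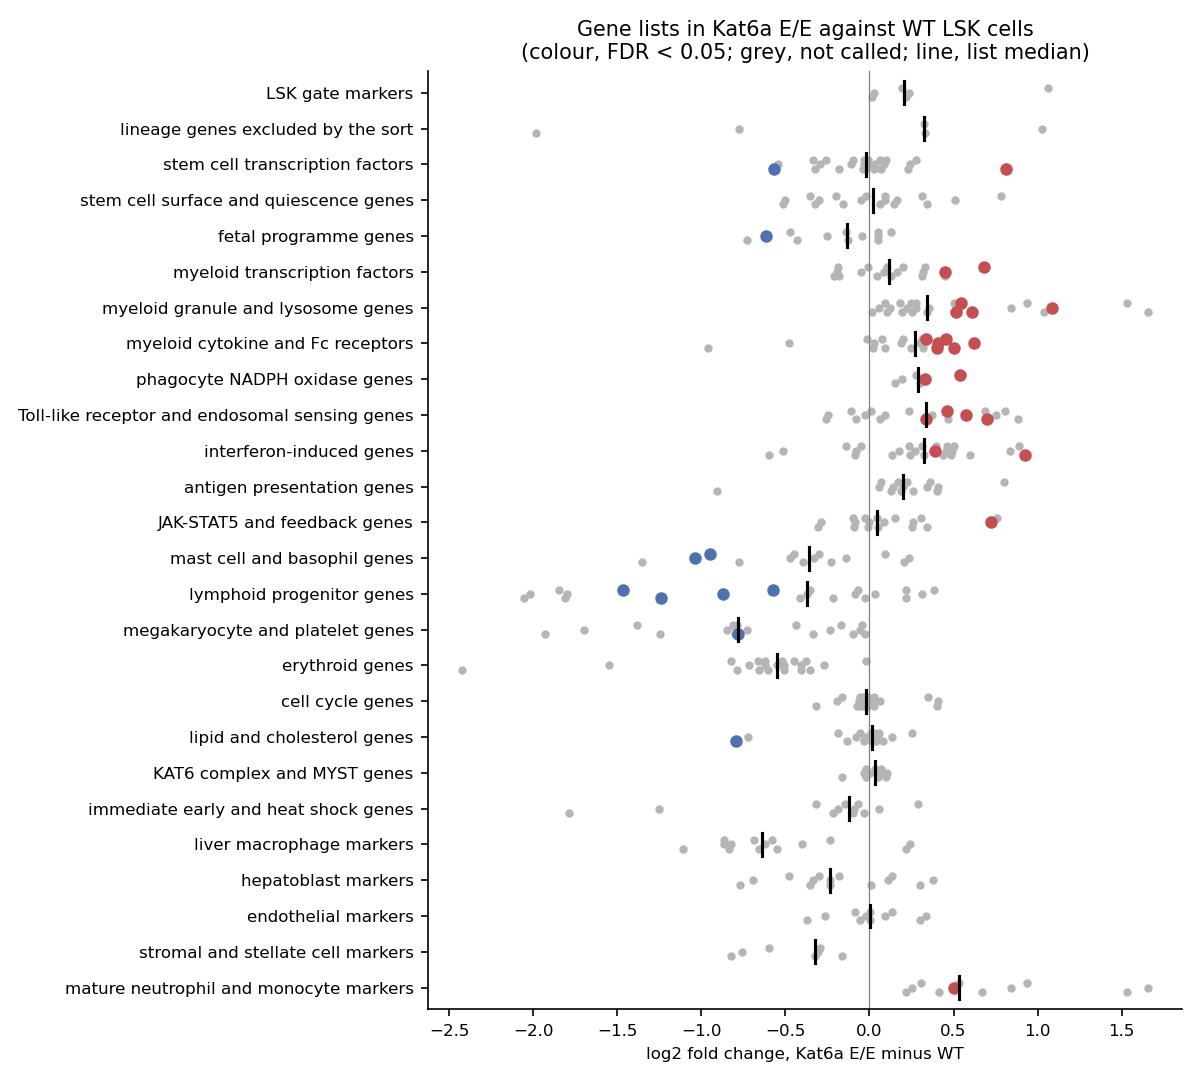
Log2 fold change in *Kat6a* E/E minus WT LSK cells (horizontal axis) of the members of each gene list (vertical axis), with called genes in colour, other genes in grey and a black line at each list's median. Called genes of the 5 myeloid and innate lists, from granule to interferon-induced genes, lie to the right, and those of the mast cell, lymphoid and megakaryocyte lists to the left.

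Few genes for stem cell identity passed the test. Of 25 stem cell transcription factors 1 was called higher and 1 lower, with a median log2 fold change of -0.02. *Gata2*, a zinc finger factor needed by hematopoietic stem cells and by early mast cell progenitors, stood at 114, 106, 105 and 99.0 CPM in WT replicates 1 to 4 and at 65.5, 56.0, 82.3 and 75.4 CPM in *Kat6a* E/E replicates 1 to 4. Every mutant library lay below every WT library, and the log2 fold change was -0.57 ± 0.08 (limma FDR 0.00353), with a call in 20 of 26 alternative analyses. *Hoxb4*, a homeobox gene known for expanding stem cells when forced, rose from 4.02 ± 0.98 CPM (SD, n=4) to 5.99 ± 1.15 CPM (log2 fold change 0.81 ± 0.19, FDR 0.0398). Its groups overlapped, and it was not called without WT 4 and E/E 2 (FDR 0.28). *Runx1* and *Meis1* gave -0.11 ± 0.08 (FDR 0.626) and -0.29 ± 0.12 (FDR 0.309).

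Surface and quiescence genes of stem cells held no called gene among 18, with a median of 0.02. *Procr*, the endothelial protein C receptor that marks fetal stem cells, stood at 7.61 ± 2.47 CPM in WT and 9.75 ± 1.14 CPM in *Kat6a* E/E (SD, n=4; FDR 0.444). *Slamf1*, the SLAM marker CD150, gave a log2 fold change of -0.36 ± 0.27 (FDR 0.668). In bulk RNA, fewer cells of a type and less RNA per cell cannot be told apart, for these genes and for all that follow.

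Among 12 genes of the fetal programme, which distinguishes fetal from adult blood stem cells, 1 was called lower. *Igf2bp1*, an RNA-binding protein and let-7 target, stood at 162, 153, 178 and 172 CPM in WT replicates 1 to 4 and at 96.2, 119, 126 and 112 CPM in *Kat6a* E/E replicates 1 to 4. The groups did not overlap, and the log2 fold change was -0.62 ± 0.08 (limma FDR 0.00353). *Lin28b*, which keeps let-7 microRNAs low in fetal cells, gave -0.14 ± 0.09 (FDR 0.614) and *Hmga2*, a let-7 target, -0.04 ± 0.17 (FDR 0.959). Without WT 4 and E/E 2 its relative *Igf2bp2* was called lower as well.

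Myeloid transcription factors moved in 1 direction where they were called: 2 of 18 rose and none fell (median 0.12). *Irf5*, an interferon regulatory factor that drives inflammatory genes in macrophages, stood at 33.6, 29.9, 29.0 and 25.2 CPM in WT replicates 1 to 4 and at 52.8, 30.8, 43.5 and 46.3 CPM in *Kat6a* E/E replicates 1 to 4. *Kat6a* E/E replicate 2 lay within the WT range and the other 3 above it (log2 fold change 0.68 ± 0.08, FDR 0.00188). *Irf8*, which directs progenitors to monocytes and dendritic cells, stood at 114, 105, 94.3 and 94.5 CPM in WT and at 158, 76.6, 134 and 146 CPM in *Kat6a* E/E. Here replicate 2 was the lowest of all 8 libraries (0.45 ± 0.09, FDR 0.0299). *Spi1*, which encodes PU.1, and *Cebpa*, the granulocyte and monocyte factors that act earlier, gave 0.16 ± 0.06 (FDR 0.24) and 0.20 ± 0.07 (FDR 0.195).

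Receptors of myeloid cytokines and related surface proteins held the most called genes of any list, with 6 of 20 higher and none lower (median 0.27). *Csf2rb*, the shared signalling chain of the GM-CSF, IL-3 and IL-5 receptors, stood at 95.8, 96.8, 94.7 and 87.1 CPM in WT replicates 1 to 4 and at 141, 102, 113 and 129 CPM in *Kat6a* E/E replicates 1 to 4. All 4 mutant libraries lay above WT, with a log2 fold change of 0.45 ± 0.06 (limma FDR 0.004). *Csf2rb2*, its neighbour that encodes the chain used by the IL-3 receptor of mice, stood at 11.3 to 14.0 CPM in WT and at 17.8 to 20.8 CPM in *Kat6a* E/E (0.62 ± 0.11, FDR 0.015), again without overlap. These paralogs are close in sequence, so reads could have been assigned to either, and their separate levels are uncertain. *Ccr2*, the receptor that guides monocytes to sites of inflammation, stood at 25.5 to 28.4 CPM in WT and 34.4 to 42.1 CPM in *Kat6a* E/E (0.50 ± 0.10, FDR 0.0216).

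*Csf1r*, the M-CSF receptor of monocytes and macrophages, stood at 122, 116, 106 and 112 CPM in WT replicates 1 to 4 and at 170, 109, 142 and 144 CPM in *Kat6a* E/E replicates 1 to 4 (log2 fold change 0.41 ± 0.07, FDR 0.0174). Replicate 2 again lay within the WT range. *Itgb2*, the common chain of leukocyte integrins, and *Il6ra*, the IL-6 receptor, rose by 0.34 ± 0.07 (FDR 0.0267) and 0.40 ± 0.09 (FDR 0.0385), with overlap between the groups in both. The granulocyte receptor *Csf3r* gave -0.02 ± 0.06 (FDR 0.955). Without WT 4 and E/E 2 6 genes of this list were called, among them *Csf2rb*, *Csf1r* and *Ccr2* but not *Csf2rb2*, *Il6ra* and *Itgb2* (FDR 0.0893, 0.171 and 0.0763).

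The 250 bases before the start of *Csf2rb* and *Csf2rb2* are shown because these neighbours rose together, and those of *Lyz2* and *Cpa3* as a granule gene that rose and one that fell (GENCODE vM39 canonical transcripts on GRCm39, 5′ to 3′ of the gene's strand). Capitals mark matches on either strand to the letters AGATAA of the GATA motif, GAGGAA of the ETS motif, TGTGGT of the RUNX motif and TTCNNNGAA of the STAT motif. The positions are chr15:78209940-78210189 (plus strand) for *Csf2rb*, chr15:78189922-78190171 (minus) for *Csf2rb2*, chr10:117118227-117118476 (minus) for *Lyz2* and chr3:20296363-20296612 (minus) for *Cpa3*.
Csf2rb: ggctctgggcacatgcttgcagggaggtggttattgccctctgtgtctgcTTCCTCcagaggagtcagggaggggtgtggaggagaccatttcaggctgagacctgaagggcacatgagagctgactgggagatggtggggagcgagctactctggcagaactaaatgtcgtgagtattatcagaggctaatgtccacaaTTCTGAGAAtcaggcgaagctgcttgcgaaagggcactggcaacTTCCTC
Csf2rb2: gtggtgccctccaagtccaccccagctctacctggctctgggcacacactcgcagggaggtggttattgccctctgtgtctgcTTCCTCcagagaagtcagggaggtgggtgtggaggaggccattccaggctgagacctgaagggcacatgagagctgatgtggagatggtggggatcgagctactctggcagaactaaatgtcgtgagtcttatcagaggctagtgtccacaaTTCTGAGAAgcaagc
Lyz2: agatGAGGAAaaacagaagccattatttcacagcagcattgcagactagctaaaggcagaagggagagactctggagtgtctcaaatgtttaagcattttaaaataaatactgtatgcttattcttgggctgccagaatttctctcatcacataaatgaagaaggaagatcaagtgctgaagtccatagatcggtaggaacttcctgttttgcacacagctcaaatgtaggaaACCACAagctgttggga
Cpa3: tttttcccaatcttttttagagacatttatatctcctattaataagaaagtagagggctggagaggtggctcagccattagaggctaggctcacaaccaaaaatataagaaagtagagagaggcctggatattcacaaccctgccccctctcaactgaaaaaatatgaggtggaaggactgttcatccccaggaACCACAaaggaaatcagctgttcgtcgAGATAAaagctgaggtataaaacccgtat

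Both *Csf2rb* windows held the same STAT match, which began 50 bases before the start of *Csf2rb* and 15 bases before that of *Csf2rb2*, and an ETS match at 200 and 167 bases. The *Csf2rb* window held another ETS match at 6 bases. The *Lyz2* window held 1 ETS match at 246 bases and 1 RUNX match at 17 bases. The *Cpa3* window held 1 GATA match, 29 bases before the start, and 1 RUNX match at 56 bases. A match is a description of the letters and was not tested as a binding site.

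Over all called genes the windows were read the same way. The STAT letters were in 7.29% of the windows of the 96 higher genes, in 7.32% of the 82 lower and in 6.71% of the 13029 tested genes with a window. ETS letters were in 29.2%, 15.9% and 23.4%, RUNX letters in 18.8%, 17.1% and 12.1%, and GATA letters in 13.5%, 7.32% and 7.61%. A CpG content of at least 0.6 of that expected from the C and G content was found in 14.6% of the higher, 32.9% of the lower and 55.5% of all tested genes. These shares were not tested against each other.

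Granule and lysosome genes of myeloid cells gave 4 called genes of 25, all higher, and 25 of 25 positive values, with a median log2 fold change of 0.34. *Lyz2*, the lysozyme of macrophages and neutrophils, stood at 124, 130, 116 and 140 CPM in WT replicates 1 to 4 and at 197, 157, 198 and 151 CPM in *Kat6a* E/E replicates 1 to 4. The groups did not overlap (0.54 ± 0.08, limma FDR 0.00548). *Napsa*, an aspartic protease of lysosomes, stood at 43.9 to 57.1 CPM in WT and 58.5 to 82.2 CPM in *Kat6a* E/E, also without overlap (0.61 ± 0.09, FDR 0.00548). *Scpep1*, a serine carboxypeptidase, and *Padi4*, the histone citrullinase of neutrophils, rose by 0.52 ± 0.09 (FDR 0.015) and 1.08 ± 0.19 (FDR 0.015), with overlap in both. *Padi4* was not called without WT 4 and E/E 2 (FDR 0.0719).

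The most abundant granule genes did not pass the test. *Mpo*, myeloperoxidase, stood at 3730, 3500, 3490 and 5120 CPM in WT and at 4630, 3740, 3940 and 4110 CPM in *Kat6a* E/E (0.09 ± 0.16, FDR 0.885). *Elane*, neutrophil elastase, stood at 178, 157, 150 and 412 CPM in WT, the last being WT replicate 4, and at 252 to 351 CPM in *Kat6a* E/E (0.36 ± 0.31, FDR 0.727). Without WT 4 and E/E 2 *Elane* was called (0.71, FDR 0.00474) and so was the monocyte gene *Ly6c2* (1.14, FDR 0.000961). Of 11 markers of mature neutrophils and monocytes, 6 are also in the granule list, and of the other 5 all were positive with a median of 0.41. Among the 11 only *Ccr2* was called, the median was 0.53, and their summed level ran from 354 to 748 CPM in WT and from 486 to 836 CPM in *Kat6a* E/E. *Ly6g*, which defines neutrophils, was at 0 to 0.381 CPM in all 8 libraries, but all 11 tested markers had positive values. *Ltf*, lactoferrin, averaged 15.4 CPM in WT and 35.4 CPM in *Kat6a* E/E (1.66 ± 0.47, limma FDR 0.166). *Ngp*, a neutrophil granule protein, averaged 16.6 and 38.4 CPM (1.53 ± 0.50, FDR 0.223). The part of mature cells in the rise of the granule genes was not tested.

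Genes of the phagocyte NADPH oxidase, the enzyme that makes superoxide, gave 2 called genes of 6, with a median log2 fold change of 0.29. All 6 were positive and under an unadjusted limma p of 0.05, as were 825 of all 13071 genes tested. *Cybb*, the membrane subunit of the oxidase, stood at 21.0, 25.7, 24.0 and 31.7 CPM in WT replicates 1 to 4 and at 43.4, 33.2, 35.5 and 32.5 CPM in *Kat6a* E/E replicates 1 to 4. The mutant libraries lay above WT, at the closest with 32.5 against 31.7 CPM (0.54 ± 0.11, FDR 0.0216). *Ncf1*, a cytosolic organizer subunit, stood at 144 to 171 CPM in WT and at 209, 140, 187 and 209 CPM in *Kat6a* E/E (0.33 ± 0.06, FDR 0.0156), with replicate 2 below the WT libraries.

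Toll-like receptor and endosomal sensing genes gave 4 called genes of 19, all higher (median 0.34). *Pld4*, an endolysosomal nuclease that limits sensing of nucleic acids, stood at 37.3, 33.0, 32.8 and 37.3 CPM in WT replicates 1 to 4 and at 53.8, 49.8, 53.2 and 52.6 CPM in *Kat6a* E/E replicates 1 to 4. The groups were far apart against their spread (0.57 ± 0.08, limma FDR 0.00353). *Cd180*, a Toll-like receptor relative, and *Ly86*, the MD-1 protein that pairs with it, rose by 0.46 ± 0.11 (FDR 0.0484) and 0.70 ± 0.13 (FDR 0.0162). *Unc93b1*, the chaperone that carries nucleic acid-sensing receptors to endosomes, rose by 0.34 ± 0.08 (FDR 0.0445). The receptors themselves were not called: *Tlr2* gave 0.46 ± 0.12 (FDR 0.088), *Tlr4* 0.09 ± 0.13 (FDR 0.837) and *Tlr9* 0.75 ± 0.26 (FDR 0.193). Without WT 4 and E/E 2 the list held 2 called genes, since *Unc93b1* and *Cd180* were not called (FDR 0.0523 and 0.187).

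Interferon-induced genes gave 2 called genes of 25, both higher (median 0.32). *Gbp3*, a guanylate-binding GTPase, stood at 10.1, 11.9, 11.4 and 9.04 CPM in WT replicates 1 to 4 and at 20.7, 20.4, 17.8 and 20.3 CPM in *Kat6a* E/E replicates 1 to 4, with no overlap (log2 fold change 0.92 ± 0.14, FDR 0.00614). *Aim2*, a sensor of cytosolic DNA, rose by 0.39 ± 0.08 (FDR 0.0267), with replicate 2 of *Kat6a* E/E inside the WT range, and was not called without WT 4 and E/E 2 (FDR 0.0535). The interferon-pathway factor *Irf7* gave 0.46 ± 0.36 (FDR 0.682). None of 15 antigen presentation genes was called (median 0.20): *Cd74*, the invariant chain, gave 0.80 ± 0.26 (FDR 0.166), while *H2-Ab1*, a class II chain, gave -0.90 ± 0.34 (FDR 0.255) with every mutant library below WT.

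Of 18 JAK-STAT5 and feedback genes 1 was called. *Socs2*, a suppressor of cytokine signalling that STAT5 induces, stood at 8.72, 9.79, 8.0 and 7.89 CPM in WT replicates 1 to 4 and at 14.8, 5.47, 15.4 and 16 CPM in *Kat6a* E/E replicates 1 to 4. The mutant group was split, with 3 libraries above all WT libraries and replicate 2 below them (log2 fold change 0.72 ± 0.11, limma FDR 0.00707). *Cish*, another STAT5 target, gave 0.31 ± 0.18 (FDR 0.524) and *Stat5a* -0.01 ± 0.06 (FDR 0.976). The list's median was 0.05.

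**Figure D3:**
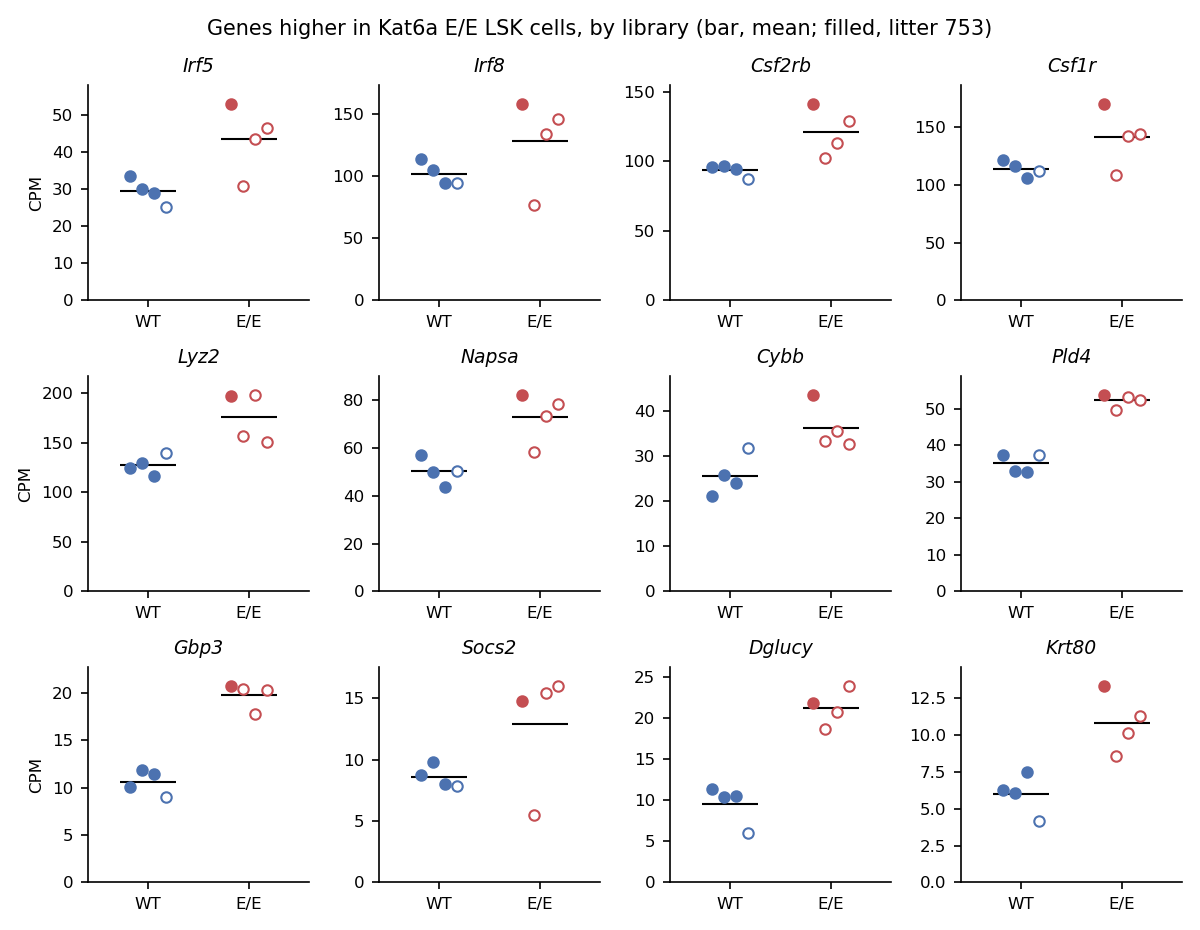
CPM (vertical axes, from 0) of 12 called genes in each of the 4 WT (blue) and 4 *Kat6a* E/E (red) libraries, with the mean as a bar and filled circles for the libraries of litter 753. In *Pld4*, *Gbp3* and *Dglucy* all mutant libraries lie above WT, and in *Irf8* and *Socs2* *Kat6a* E/E replicate 2 (the second red circle) lies lowest.

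Mast cell and basophil genes gave 2 called genes of 14, both lower, with a median log2 fold change of -0.36. In the model 11 values were negative, but some of these genes had no lower mean CPM in *Kat6a* E/E, as for *Mcpt8* below. *Cpa3*, the carboxypeptidase of mast cell granules, stood at 33.0, 32, 34.4 and 43.1 CPM in WT replicates 1 to 4 and at 16.1, 23.8, 17.6 and 17.7 CPM in *Kat6a* E/E replicates 1 to 4. The groups did not overlap, the log2 fold change was -1.04 ± 0.11 (limma FDR 0.000582), a 2.06-fold lower level, and the gene was called in 22 of 26 alternatives. *Slc45a3*, a solute carrier of basophils and mast cells, fell by 0.95 on the log2 scale (SE 0.22, FDR 0.0451) in the model, but its levels overlapped: WT replicate 4 and *Kat6a* E/E replicate 2 had 13.5 and 12 CPM, the other 6 libraries 3.60 to 7.76. It was not called without these 2 libraries (FDR 0.107). *Fcer1a*, the high-affinity IgE receptor chain that defines mature mast cells, was at 0 to 0.115 CPM. *Mcpt8*, a basophil protease, gave -0.33 ± 0.36 (FDR 0.791), with means of 2.68 CPM in WT and 2.79 in *Kat6a* E/E.

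Megakaryocyte and platelet genes were negative in 19 of 19 tested members, with a median of -0.78, and 1 was called. *Itga2b*, the CD41 integrin chain, stood at 42.9, 48.3, 38.5 and 69.5 CPM in WT replicates 1 to 4 and at 25.9, 41.1, 33.6 and 25.1 CPM in *Kat6a* E/E replicates 1 to 4. Only *Kat6a* E/E replicate 2 lay within the WT range (log2 fold change -0.78 ± 0.14, FDR 0.0179). *Pf4*, the platelet chemokine, and *Gp1ba*, a von Willebrand factor receptor chain, gave -1.70 ± 0.70 (FDR 0.349) and -0.04 ± 0.19 (FDR 0.963). Without WT 4 and E/E 2 *Itga2b* and *Mmrn1*, a multimerin of platelets, were called lower and the median was -0.53.

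No erythroid gene of 21 was called, although all 21 gave negative values in the model (median -0.55). The measured means did not all fall. *Hba-a1*, an alpha globin gene, averaged 563 CPM in WT and 747 in *Kat6a* E/E, and *Gata1* 65.5 and 61.7. The summed erythroid level ran from 2021 to 6580 CPM in WT and from 1232 to 9550 in *Kat6a* E/E. The highest erythroid levels were in 1 library of each genotype. *Gata1*, the erythroid and megakaryocyte master factor, stood at 41.1, 50.4, 50.0 and 120 CPM in WT and at 31.6, 131, 54.0 and 30.0 CPM in *Kat6a* E/E (-0.62 ± 0.21, FDR 0.205). *Klf1* and *Epor*, the erythropoietin receptor, had their highest levels in the same 2 libraries, WT replicate 4 (211 and 133 CPM) and *Kat6a* E/E replicate 2 (228 and 146 CPM). Without both, the median of the list was -0.18.

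Lymphoid genes fell where they were called: 4 of 21 tested were lower and none higher, with a median of -0.37. *Rag1*, which starts rearrangement of antigen receptor genes, stood at 50.0, 41.1, 39.2 and 67.9 CPM in WT replicates 1 to 4 and at 13.5, 31.6, 24.3 and 17.2 CPM in *Kat6a* E/E replicates 1 to 4. The groups did not overlap (log2 fold change -1.46 ± 0.25, limma FDR 0.0216), a 2.76-fold lower level. *Rag2*, its partner, stood at 17.6, 18.2, 15.4 and 11.1 CPM in WT and at 10.1, 3.25, 12.5 and 11.1 CPM in *Kat6a* E/E (-0.57 ± 0.12, FDR 0.0295), with overlap through WT replicate 4. *Il7r*, the receptor on which lymphoid progenitors depend, stood at 20.1 to 22.8 CPM in WT and at 9.67, 5.26, 17.7 and 13.2 CPM in *Kat6a* E/E, all below WT (-0.87 ± 0.18, FDR 0.0299). *Ccr9*, the chemokine receptor of thymus-homing progenitors, stood at 39.8, 37.1, 29.6 and 23.3 CPM in WT and at 9.55, 17.0, 18.9 and 13.7 CPM in *Kat6a* E/E, also without overlap (-1.24 ± 0.24, FDR 0.0276).

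The receptor *Flt3*, which marks lymphoid-primed multipotent progenitors, did not fall with these genes: it stood at 248 ± 78.7 CPM in WT and 275 ± 64.1 CPM in *Kat6a* E/E (SD, n=4; log2 fold change 0.31 ± 0.16, FDR 0.488). Genes of committed B cells had large negative values that did not pass the test, among them *Ebf1* (-1.81, FDR 0.149) and *Pax5* (-1.80, FDR 0.35), both B cell transcription factors chosen here after their values were seen. The part of B-lineage cells in the fall of the lymphoid genes was not tested. Without WT 4 and E/E 2 *Rag1* and *Rag2* were called (FDR 0.00474 and 0.0487), *Ebf1* was called lower too, and *Il7r* and *Ccr9* were not (FDR 0.114 and 0.2).

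**Figure D4:**
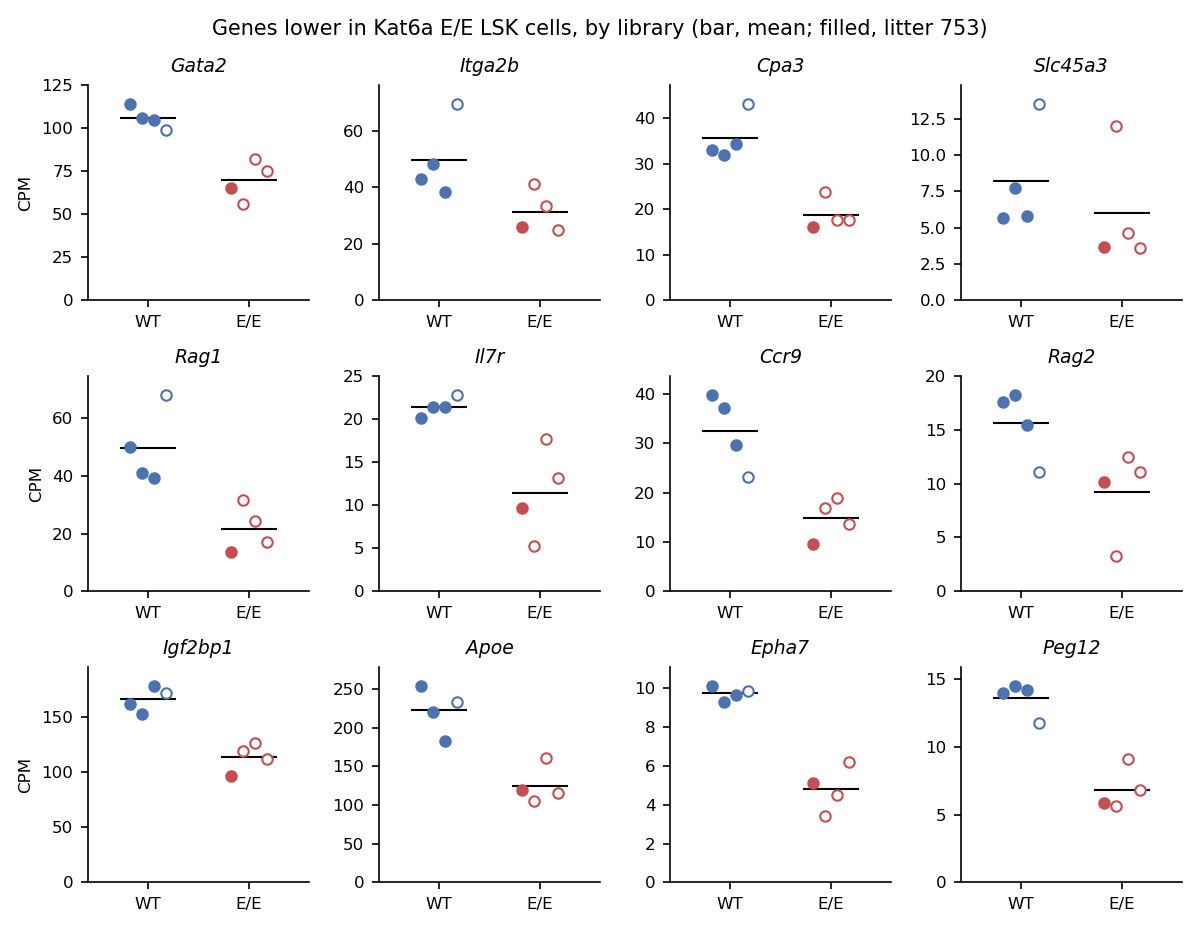
CPM (vertical axes, from 0) of 12 called genes in each of the 4 WT (blue) and 4 *Kat6a* E/E (red) libraries, with the mean as a bar and filled circles for the libraries of litter 753. In *Cpa3*, *Gata2*, *Igf2bp1*, *Rag1*, *Il7r* and *Ccr9* all mutant libraries lie below WT, and in *Slc45a3* the groups overlap through WT replicate 4 and *Kat6a* E/E replicate 2.

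Outside these programs, *Apoe* was the called gene among 18 of lipid and cholesterol metabolism (median 0.01). *Apoe*, the lipid-carrying apolipoprotein made by macrophages and other cells, stood at 254, 221, 183 and 233 CPM in WT replicates 1 to 4 and at 119, 105, 161 and 116 CPM in *Kat6a* E/E replicates 1 to 4. The groups did not overlap (log2 fold change -0.80 ± 0.12, limma FDR 0.0135), but the gene was not called without WT 4 and E/E 2 (FDR 0.0993). Liver macrophage markers moved in the same direction: none of 14 was called, 12 were negative, the median was -0.64, and their summed level ran from 148 to 236 CPM in WT and from 88.0 to 162 CPM in *Kat6a* E/E. *C1qa* and *C1qb*, complement chains of macrophages, gave -0.69 ± 0.30 (FDR 0.35) and -0.82 ± 0.33 (FDR 0.316). The part of macrophages in the *Apoe* difference was not tested. *Abca1*, a cholesterol exporter, gave 0.13 ± 0.14 (FDR 0.766).

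Of 26 cell cycle genes none was called, with a median of -0.02, though *Ccnd2*, cyclin D2, was called higher without WT 4 and E/E 2. *Mki67* stood at 942 ± 219 CPM in WT and 952 ± 110 CPM in *Kat6a* E/E (SD, n=4; FDR 0.989), and *Top2a* and *Pcna* gave -0.01 ± 0.04 (FDR 0.947) and -0.05 ± 0.05 (FDR 0.754). None of 12 immediate early and heat shock genes was called (median -0.12), which mark stress during sorting. Of the remaining liver cell lists, none of 14 hepatoblast, 11 endothelial and 7 stromal markers was called, with medians of -0.23, 0.00 and -0.33, though the hepatoblast genes *Dlk1* and *Hnf4a* were called lower without WT 4 and E/E 2. *Alb*, albumin, stood at 23.5 to 70.8 CPM in WT and 15 to 81.0 CPM in *Kat6a* E/E.

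The gene with the smallest p of all belonged to none of these lists. *Dglucy*, a mitochondrial D-glutamate cyclase, stood at 11.4, 10.4, 10.5 and 5.99 CPM in WT replicates 1 to 4 and at 21.8, 18.7, 20.7 and 23.9 CPM in *Kat6a* E/E replicates 1 to 4. Without any overlap it rose 2.42-fold (log2 fold change 1.27 ± 0.12, limma FDR 0.00011) and was called in 22 of 26 alternatives. *Krt80*, a keratin, and *Anxa2*, a membrane-binding annexin, rose by 1.02 ± 0.16 (FDR 0.01) and 0.60 ± 0.10 (FDR 0.015), and *Tmem40*, a transmembrane protein, by 0.51 ± 0.08 (FDR 0.0135), all 3 without overlap. *Krt80* was not called without WT 4 and E/E 2 (FDR 0.0993). The highest positive log2 fold changes among called genes belonged to genes of low level. They were *Cd177*, a neutrophil surface protein (1.87), *Chi3l1*, a chitinase-like protein of neutrophils and macrophages (1.46), *Ggt1*, a gamma-glutamyltransferase (1.46), *Crispld1* (1.39) and the interferon-induced GTPase *Tgtp1* (1.33). Of these 5, *Chi3l1*, *Ggt1* and *Crispld1* did not overlap, and *Cd177* and *Tgtp1* did. None of the 5 was called without WT 4 and E/E 2, with FDRs of 0.467 for *Cd177*, 0.087 for *Chi3l1*, 0.333 for *Ggt1*, 0.121 for *Crispld1* and 0.364 for *Tgtp1*.

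Among the other lower genes, *Kcnj5*, a potassium channel subunit, stood at 3.31, 3.47, 3.19 and 6.63 CPM in WT replicates 1 to 4 and at 0.339, 3.14, 0.858 and 0.736 CPM in *Kat6a* E/E replicates 1 to 4 (log2 fold change -2.59 ± 0.42, FDR 0.0135). *Asxl3*, a Polycomb-associated chromatin gene, stood at 1.68 to 3.12 CPM in WT and 0.184 to 1.14 CPM in *Kat6a* E/E (-2.87 ± 0.49, FDR 0.015). *Epha7*, an ephrin receptor, *Peg12*, a paternally expressed imprinted gene, and *Slc7a8*, an amino acid transporter, fell by 0.97, 0.95 and 0.62 on the log2 scale (FDR 0.015 each), all without overlap. *Mrc2*, a collagen-binding endocytic receptor, stood at 3.16 to 5.28 CPM in WT and at 0 to 2.16 CPM in *Kat6a* E/E (-2.06 ± 0.35, FDR 0.015). *Cecr2*, a bromodomain chromatin remodeller, overlapped, with 58.0 CPM in WT replicate 4 and 38.9 CPM in *Kat6a* E/E replicate 2 (-1.05 ± 0.17, FDR 0.015). *Igfbp5*, an IGF-binding protein, was listed at 0 in 3 mutant libraries and at 0.478 CPM in the other, against 1.62 to 4.57 CPM in WT (FDR 0.0175). *Rragd*, a Rag GTPase of nutrient sensing, was at 0, 0, 0.191 and 0.0368 CPM in *Kat6a* E/E and 0.615 to 2.04 CPM in WT (FDR 0.015). *St8sia6*, a sialyltransferase, and *Tdrp* were at 1.12 CPM or less in all 8 libraries and called lower (FDR 0.0451 and 0.0276), and fitted fold changes at such levels depend on the prior count.

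The same allele was read a second time in libraries that share none with the comparison above, the 4 double against the 4 *Kat6b* E/E, fitted alone with litter as a block and no surrogate variables. Double replicates 2, 3 and 4 came from litter 1045, which held no *Kat6b* E/E library, so litter and genotype can be told apart only within litter 970, with 1 library of each. Of the 178 called genes 171 could be fitted there, and 163 of them (95.3%) had the same sign, 92 of 96 higher and 71 of 75 lower genes, against 58.2% of the other genes tested. The median change along the first direction was 0.56, against 0.69 in the main comparison for the same genes. None of the 171 passed an FDR of 0.05 in these 8 libraries, 78 had an unadjusted p under 0.05 with the same sign and 0 with the opposite sign, where 5.86% of all genes had such a p in either direction. Calls were made in a fit to all 16 LSK libraries, so the spread and surrogate variables were not independent of these libraries. This reading was chosen after the data had been seen.

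Gene by gene, *Csf2rb* gave log2 fold changes of 0.45 in *Kat6a* E/E against WT and 0.57 in double against *Kat6b* E/E (unadjusted limma p 0.00293). *Lyz2* gave 0.54 and 1.27 (p 0.00816), and *Cybb* 0.54 and 1.23 (p 0.000152). *Lyz2* stood at 103 to 130 CPM in *Kat6b* E/E and at 146, 511, 308 and 340 CPM in double replicates 1 to 4. The summed level of mature neutrophil and monocyte markers moved with it, from 359 to 600 CPM in *Kat6b* E/E and at 570, 2296, 1801 and 1426 CPM in double replicates 1 to 4, and that of erythroid genes was 3740 to 8471 CPM and 2345, 18880, 12360 and 11990 CPM. The part of mature cells in these differences was not tested. *Cpa3* gave -1.04 and -0.89 (p 0.000655), *Apoe* -0.80 and -0.70 (p 6.46e-05), *Igf2bp1* -0.62 and -0.46 (p 0.000726) and *Rag1* -1.46 and -1.87 (p 0.000534). Smaller values in the other libraries were found for *Irf8*, 0.45 and 0.06 (p 0.794), *Aim2*, 0.39 and 0.08 (p 0.745), and *Dglucy*, 1.27 and 0.62 (p 0.189). The test of the difference between these effects in the fit to all 16 libraries called no gene. Its lowest FDR was 0.891, and 652 genes had an unadjusted p below 0.05. Without double replicate 1, the litter mate of a *Kat6b* E/E library, it called 1436 genes, with a lowest FDR of 0.000965. In the fit to all 16 libraries the leverage of double replicates 1 to 4 was 0.918, 0.998, 0.978 and 0.988. With so little of these libraries left unfitted, a count of 0 does not show that the effects are equal.

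**Figure D5:**
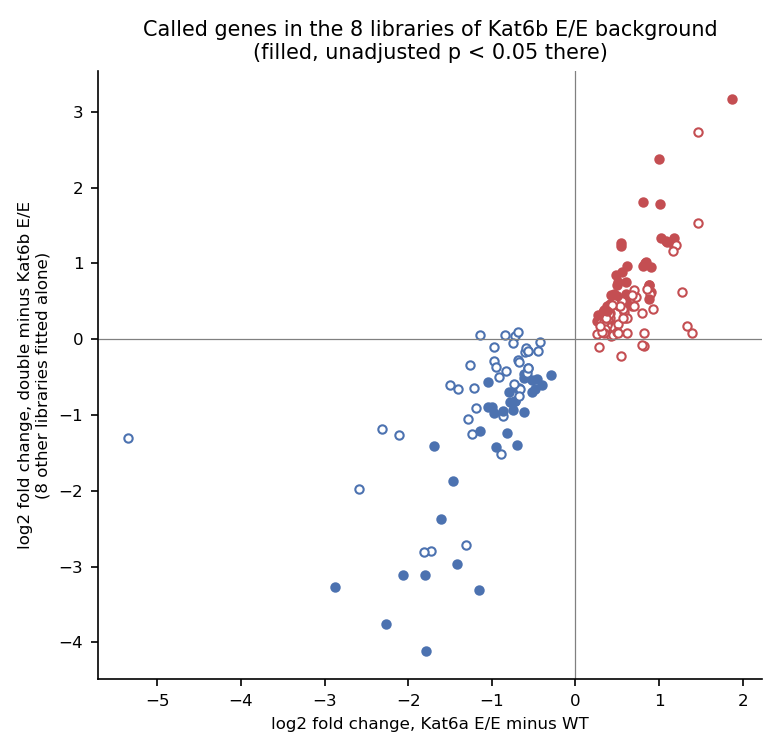
Log2 fold change of 171 called genes in *Kat6a* E/E minus WT (horizontal axis) against double minus *Kat6b* E/E in 8 other libraries fitted alone (vertical axis), with genes called higher in red, lower in blue, and filled circles for an unadjusted p under 0.05 in the other libraries. For 163 of the points both values have the same sign.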

How the data were processed

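The deposited files hold raw counts of read pairs per gene, which the authors made from bulk RNA-sequencing libraries of sorted LSK cells, 1 fetus per library, by alignment to mm39 with Rsubread and assignment to RefSeq genes with featureCounts (version not given in the sources used here). Per the labels, libraries were made with a poly(A) kit that does not mark strand, so overlapping and antisense genes cannot be told apart. Of 26411 genes 26359 were matched by identifier to a RefSeq gene table (GRCm38.p6, used for gene type and chromosome only), and 52 were left out.

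The model followed the study's methods. Protein-coding genes without Y-linked ones (20951) were filtered with filterByExpr, which left 13071, scaled by TMM, and fitted over all 16 LSK libraries (4 genotypes, 9 litters) with voomLmFit, 4 surrogate variables from wsva, litter as a random block and robust moderation (R 4.3.3, limma 3.58.1, edgeR 4.0.16). The FDR was obtained by Benjamini-Hochberg adjustment across the genes tested. Replicates are separate fetuses of 1 genotype. Spread from library depth and counting is part of these p-values, and totals of 17690587 to 59216547 left genes under about 1 CPM with few counts. CPM values are scaled by TMM. No library was a repeat of another.

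Genes named are *Kat6a*, *Kat6b*, *Kit* and *Ly6a*, the 12 called genes of smallest p and the 5 of largest log2 fold change in each direction, and of each list its called members and first 3 genes. The comparison, lists and rule were chosen with earlier results of these data known, so counts over lists are descriptions. Within the lists, *Ighm* and *Vpreb1* were not analysed here. Some results for single genes are left out of the text.

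The 26 alternatives were 0, 2 or 6 surrogate variables, their weighting, no litter block, litter as a fixed effect, *Xist* as a covariate, edgeR quasi-likelihood tests, DESeq2 1.42.0 and its size factors, no filter, all gene types, sample weights, a replicate block, only the 8 libraries, and omission of each library. The numbers in the labels did not pair the samples, since correlations of same-numbered WT and *Kat6a* E/E deviations were 0.136, -0.192, -0.04 and -0.43. The procedure was tested on simulated counts drawn without a litter effect or hidden factors, so that test does not cover these features of the data. Sequences came from GRCm39 with GENCODE vM39. E9.5 embryos were not used.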

Additional observations from a re-analysis of the deposited data

Results flagged for a closer look

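In 13 of 110 checks of 4 libraries of 1 genotype, a single library lay further from the others than Dixon's 95% limit allows, where chance gives about 1 in 20. Most of these concerned WT replicate 4. Its total of 59216547 read pairs stood above 22200000 to 26500000 in the other WT libraries. It was the highest in the summed CPM of erythroid genes (6580 against 2021 to 2693), of lineage genes excluded by the sort (152.6 against 85.6 to 93.1) and of myeloid granule and lysosome genes (8593 against 5583 to 5930). It was the lowest in gate markers (1339 against 1943 to 1994) and in JAK-STAT5 and feedback genes (1457 against 1686 to 1731). Single genes of WT replicate 4 were *Kcnj5* at 6.63 CPM against 3.19 to 3.47 and *Cecr2* at 58.0 CPM against 30.4 to 33.1.

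*Kat6a* E/E replicate 2 was the lowest mutant library in *Kat6b* (22.3 CPM against 38.0 to 40.6), *Socs2* (5.47 against 14.8 to 16) and *Scpep1* (15.2 against 23.8 to 25.5). *Kat6a* E/E replicate 3 was the lowest in *Gbp3* (17.8 CPM against 20.3 to 20.7). *Kat6a* E/E replicate 1 was the highest mutant library in the summed granule and lysosome genes (7907 CPM against 6792 to 6887).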

How the results depend on the processing

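The count of called genes in *Kat6a* E/E against WT depended on the model. It was 178, and 3 with 0 surrogate variables, 50 with 2, 33 with no litter block and 5 with sample weights. In edgeR quasi-likelihood tests it was 82 and 0 with 4 and with 0 surrogate variables. It was 0 with litter as a fixed effect, and 16 and 0 with only the 8 libraries, with and without the litter block. The fits with litter as a fixed effect and with only the 8 libraries also had 0 surrogate variables, a change that by itself gave 3 calls. Their counts therefore do not show the effect of litter or of the choice of libraries alone. At 0 calls, 299, 241 and 690 genes had an unadjusted p under 0.05 with litter as a fixed effect, in the edgeR test and with only the 8 libraries. With 6 surrogate variables it was 267, and in DESeq2 242. Called genes were 53.9% higher, but 35.4% in edgeR and 42.6% in DESeq2, both with 4 surrogate variables. Every one of the 178 kept its direction in each alternative where it was fitted. The alternatives share libraries with the fit that picked these genes, so this is not a separate check. Omission of 1 of the 8 libraries gave 1 to 197 genes, the lowest without *Kat6a* E/E replicate 1, 25 without WT replicate 2, 43 without *Kat6a* E/E replicate 4, 88 without WT replicate 4 and 104 without WT replicate 3. Omission of 1 of the other 8 gave 98 to 364. The omission of WT replicate 4 and *Kat6a* E/E replicate 2 together was chosen after seeing the data. The causes were not tested.

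The replicate block, on numbers that did not pair the samples, gave 28 called genes here and 8 in double against *Kat6b* E/E. In that comparison 193 genes were called, 0 with 0 surrogate variables, 366 with 2, 598 with no litter block, 1333 in the edgeR test, and 0 to 2929 on omission of 1 library. The test of the difference between the effects called 0 genes, and 0 to 1436 on omission of 1 library, the highest without double replicate 1.

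For 112 named genes, 2329 log2 fold changes under the alternatives kept their call or stayed close, 598 lost it and 14 gained it, 17 untested differences within litter 753 moved, and 0 called values reversed. The median kept its sign in all 26 alternatives for 15 of 26 lists. Of the 11 others, 6 had a median under 0.05 in size. The rest were the hepatoblast list (-0.23, turned to 0.49 with litter as a fixed effect and 0.02 without *Kat6a* E/E replicate 3), the lineage genes excluded by the sort (0.33, turned to -0.07 with litter as a fixed effect), the mast cell and erythroid lists (-0.36 and -0.55, turned to 0.03 and 0.05 in the edgeR test with 0 surrogate variables) and the immediate early genes (-0.12, turned to 0.003 with 6 surrogate variables). What depth limits at low levels was not tested.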
